A study of Mus musculus with 4 samples.

Results

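The respiratory chain and ATP synthase genes described here were the rows whose symbol begins with Nduf, Uqcr, Cox4 to Cox8 or Atp5, together with the 4 succinate dehydrogenase genes, Cyc1 and Cycs. There were 94 such genes among the 23420 gene rows of each library. They comprised 36 subunits of complex I, 7 assembly factors of complex I (the Ndufaf genes), 4 subunits of complex II, 9 of complex III, the carrier cytochrome c, 20 subunits of complex IV, 15 of complex V and 2 further genes whose Atp5 symbol is historical (Atp5s and Atp5sl). Ndufa4 and its relative Ndufa4l2 carry a complex I symbol, but their proteins belong to complex IV and they were counted there. The chain subunits encoded by mitochondrial DNA were not analysed here.

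The cells were mouse large pre-B cells of 1 line with the genotype Irf4/8-/-. Large pre-B cells are a dividing stage of B cell development that depends on interleukin 7. Every library came from cells grown on OP9, a stromal feeder line, and infected with a retrovirus that encoded a short hairpin RNA and green fluorescent protein. They were harvested at 72 hours by sorting for that fluorescence, and interleukin 7 was present at 10 ng/ml. The hairpin was directed at luciferase in 2 control libraries (shLuc) and at Myb, a transcription factor of blood progenitors, in the other two (shMyb). The transductions were done in duplicate sets of wells, and p-values here reflect variation between such sets only, with no second line or animal behind them.

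The chain sits in the inner mitochondrial membrane. Complex I takes electrons from NADH and complex II from succinate, ubiquinone carries them to complex III, and cytochrome c carries them on to complex IV, which reduces oxygen. Complexes I, III and IV pump protons, and complex V, the ATP synthase, uses the returning protons to make ATP. Most subunits are encoded in the nucleus, and transcription factors such as NRF1, the ETS factor GABP and YY1 are known to bind many of their promoters.

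Each library held between 36573743 and 44682954 counts. Levels are given as CPM, counts scaled to a common library total. Myb transcript, the target of the hairpin, was at 616 and 600.2 CPM in shLuc and at 617 and 639 CPM in the libraries labelled shMyb, a log2 difference of 0.05 with an adjusted p of 0.283 in edgeR's quasi-likelihood test with Benjamini-Hochberg adjustment. The targeted transcript was therefore not lower where its hairpin was used, and every direction below refers to the libraries labelled shMyb. Of all 12610 genes tested, 62.2% were called at an adjusted p below 0.05, and 49.1% of those calls were higher. With library totals as the only scaling, 60.1% of calls were higher. The summed level of 11 pre-B cell markers was 4906 and 4980 CPM in the controls and 4933 and 4874 CPM in shMyb. Transcripts of the deleted genes were counted in every library, Irf4 at 97.2 and 101 CPM in the controls against 232 and 233 CPM in shMyb (log2 fold change 1.23, adjusted p = 3.4e-19 in edgeR) and Irf8 at 553 and 554 CPM against 438 and 433 CPM (-0.34). Counts per gene cannot show which part of a gene was deleted. Among markers of other cells, Hba-a1, Hba-a2, Cd4, Cd8a and Elane had no count in any library. Others of their lists were counted. Erythroid Beta-s was at 4.23 and 1.49 CPM in shLuc, against 6.19 and 8.58 CPM in shMyb. Cd5, of the T cell list, was at 2.38 and 2.64 CPM in shLuc, against 3.23 and 2.82 CPM in shMyb. Of the myeloid markers 8 of 11 could be tested, and of those of OP9-like stroma 12 of 13.

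The promoters of 6 tested members are shown. Every match to the NRF1 motif (GCGCA, 1 further base of any kind, then GCGC) on either strand is in capitals. Shown are the member with the most matches upstream of its start site in each group that had any (ties went to the larger fall), and Atp5sl, the member that rose. Each run holds the 250 bases before the RefSeq start site, 5′ to 3′ on the strand of the gene, in GRCm38.p6. They lie at chr16:37654369-37654618 on the minus strand (Ndufb4, complex I), chr13:74350241-74350490 minus (Sdha, complex II), chr5:115348959-115349208 minus (Cox6a1, complex IV), chr5:108434400-108434649 minus (Atp5k, complex V), chr4:24897833-24898082 plus (Ndufaf4, assembly factor) and chr7:25619164-25619413 plus (Atp5sl).
Ndufb4: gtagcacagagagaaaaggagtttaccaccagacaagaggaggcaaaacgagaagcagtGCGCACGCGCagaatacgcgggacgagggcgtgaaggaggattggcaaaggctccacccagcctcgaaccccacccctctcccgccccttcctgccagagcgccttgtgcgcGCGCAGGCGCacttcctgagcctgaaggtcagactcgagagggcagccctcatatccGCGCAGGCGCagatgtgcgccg
Sdha: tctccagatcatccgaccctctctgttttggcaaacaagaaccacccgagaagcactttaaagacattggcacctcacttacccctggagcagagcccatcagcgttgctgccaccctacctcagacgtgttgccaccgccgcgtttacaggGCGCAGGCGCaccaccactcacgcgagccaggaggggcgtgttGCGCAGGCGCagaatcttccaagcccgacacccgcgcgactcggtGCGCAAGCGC
Cox6a1: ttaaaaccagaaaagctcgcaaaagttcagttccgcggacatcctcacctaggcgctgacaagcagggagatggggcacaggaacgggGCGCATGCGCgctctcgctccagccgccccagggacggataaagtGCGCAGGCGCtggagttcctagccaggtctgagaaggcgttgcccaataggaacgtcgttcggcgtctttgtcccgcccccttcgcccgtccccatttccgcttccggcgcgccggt
Atp5k: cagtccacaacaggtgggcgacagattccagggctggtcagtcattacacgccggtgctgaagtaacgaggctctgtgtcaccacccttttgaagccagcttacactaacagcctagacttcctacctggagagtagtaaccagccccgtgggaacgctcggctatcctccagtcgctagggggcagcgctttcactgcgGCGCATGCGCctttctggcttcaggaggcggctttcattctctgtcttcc
Ndufaf4: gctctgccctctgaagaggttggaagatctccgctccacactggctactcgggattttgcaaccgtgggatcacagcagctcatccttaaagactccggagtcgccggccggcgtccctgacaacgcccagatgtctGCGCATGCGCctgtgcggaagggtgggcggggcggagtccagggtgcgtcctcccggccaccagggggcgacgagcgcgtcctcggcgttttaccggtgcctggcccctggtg
Atp5sl: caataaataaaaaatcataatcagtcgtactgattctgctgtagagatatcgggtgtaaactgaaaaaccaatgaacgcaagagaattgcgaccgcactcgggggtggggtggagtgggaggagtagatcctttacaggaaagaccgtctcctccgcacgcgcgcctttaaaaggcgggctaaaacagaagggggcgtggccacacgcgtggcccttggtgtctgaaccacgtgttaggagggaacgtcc
Ndufb4 and Sdha each had 3 matches in these bases, Cox6a1 had 2, Atp5k and Ndufaf4 had 1 each, and Atp5sl had none. All but Atp5sl were chosen for their matches, so these counts cannot compare it with members that fell.

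Nearly the whole nuclear-encoded chain was lower in the libraries labelled shMyb. Of the 94 genes, 87 had enough counts to be tested, and of these 81 fell, 1 rose (Atp5sl) and 5 were not called (Atp5s, Ndufv3, Cox7a2l, Ndufaf3 and Cox6b2). Among all tested genes 31.7% fell and 30.6% rose. Of the tested members 84 had at least 10 CPM in shLuc. Of all 8594 tested genes at that level 40.7% fell and 2252 rose, with a median log2 fold change of -0.05. In 82 members both shMyb libraries lay below both shLuc libraries, against 41.2% of all tested genes and 4324 of those 8594. The median log2 fold change of the tested members was -0.30, a fall of 18.8%, beside a median of 0.0048 over all tested genes. The falls were modest in size: 37 of the 87 fell by at least 20%, and 31 passed a test against a minimum fold of 1.2 (edgeR's glmTreat), which 10.0% of all tested genes passed in that direction. Added together, the members took 12126 and 12527 CPM in shLuc, against 10188 and 10022 CPM in shMyb. Their share of all counts was 1.19% and 1.22% in shLuc and 1.04% and 1.03% in shMyb. From bulk libraries, less RNA per cell and fewer cells of a kind cannot be told apart.

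**Figure D1:**
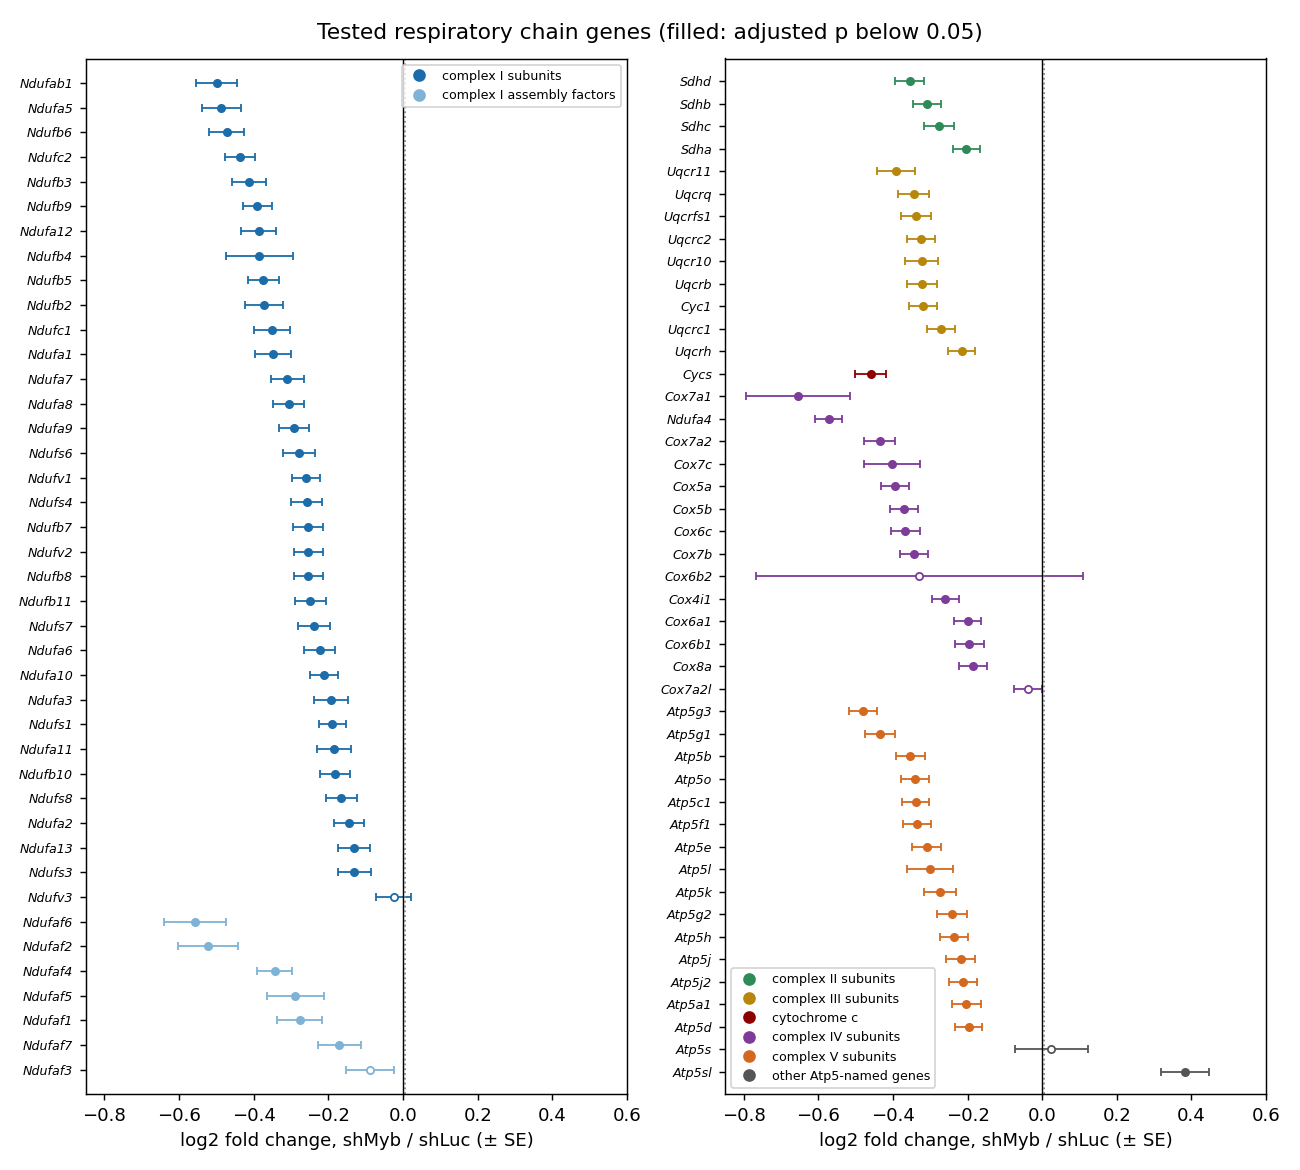
Log2 fold change (shMyb over shLuc, x axis) of 86 of the 87 tested members, with bars of 1 standard error and colours by complex. Filled points had an adjusted p below 0.05. All but Atp5s and Atp5sl lie left of 0, and the lowest point is Cox7a1 at -0.65.

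Complex I, the NADH dehydrogenase, had 34 of 35 tested subunits lower, with a median of -0.26 and a range from -0.50 to -0.03. All 7 core subunits, which hold the flavin and the iron-sulfur clusters, fell, with a median of -0.19. Among them Ndufs3 lost its call with DESeq2, at an adjusted p below 0.01 and with library totals as the only scaling. Its call was also lost when the trend with expression level, or that with length and GC content, was taken out. Ndufv1, which binds NADH, was at 109.5 and 111 CPM in shLuc, against 92.5 and 91.5 CPM in shMyb. Ndufs1, an iron-sulfur subunit, was at 169.7 and 173 CPM against 151 and 150.1 CPM. Their log2 fold changes were -0.26 and -0.19. In both genes the shMyb libraries lay below both shLuc libraries, as they did in 41.2% of all tested genes.

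Of the 28 tested accessory subunits, which surround the core, 27 fell, with a median of -0.30. The largest falls were in Ndufab1, the mitochondrial acyl carrier protein, Ndufa5 and Ndufb6. Ndufab1 went from 40.6 and 42.0 CPM to 27.6 and 30.9 CPM, Ndufa5 from 36.9 and 36.1 to 25.6 and 26.5 CPM, and Ndufb6 from 59.6 and 62.6 to 45.1 and 43.0 CPM. These are log2 fold changes of -0.50, -0.49 and -0.47, and both shMyb libraries were low in each. Ndufv3, an accessory subunit of the NADH-binding arm, was the tested subunit of complex I that was not called, at 47.7 and 51.2 CPM in shLuc, against 48.5 and 48.8 CPM in shMyb. Its groups overlapped, and the 95% interval of its log2 fold change ran from -0.12 to 0.07 (adjusted p = 0.647, edgeR). Ndufs5 had no count in any library, which allows up to 3 counts, or 0.0671 to 0.0820 CPM, by counting error alone. That limit does not hold if reads shared with near-identical copies of the gene were dropped in the counting, which was not tested.

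The assembly factors, which build complex I without staying in it, moved with the subunits. Of 7 Ndufaf genes 6 fell, with a median of -0.29. Ndufaf6 and Ndufaf2 had the largest falls, at -0.56 and -0.52. Ndufaf6 was at 13.8 and 15.4 CPM in shLuc against 10.5 and 9.29 CPM in shMyb, and Ndufaf2 at 13.3 and 14.4 against 9.50 and 9.85 CPM. Ndufaf4 followed at -0.34. Ndufaf3 was at 19.6 and 19.2 CPM against 18.7 and 17.8 CPM. Its groups did not overlap, but it was not called (log2 fold change -0.09, 95% interval -0.21 to 0.04, adjusted p = 0.233 in edgeR), and its exons overlap Impdh2 on the opposite strand.

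Complex II, which is also the succinate dehydrogenase of the citric acid cycle, fell in all 4 subunits. Sdha, the flavoprotein, went from 392 and 400.3 CPM to 349.9 and 338 CPM, and Sdhb, the iron-sulfur subunit, from 136 and 143 CPM to 113 and 112 CPM. The membrane anchors Sdhc and Sdhd followed with log2 fold changes of -0.28 and -0.36, beside -0.20 for Sdha and -0.31 for Sdhb. In all 4 genes both shMyb libraries lay below both shLuc libraries, as they did in 41.2% of all tested genes.

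Complex III passes electrons from ubiquinol to cytochrome c, and all 9 of its genes fell, within a narrow range from -0.39 to -0.22. The catalytic subunits Cyc1 (cytochrome c1) and Uqcrfs1 (the Rieske iron-sulfur protein) had log2 fold changes of -0.32 and -0.34. Cyc1 was at 166.5 and 173 CPM in shLuc against 139.9 and 132 CPM in shMyb. Uqcrfs1 was at 156 and 163 CPM against 131 and 121 CPM. The core proteins Uqcrc1 and Uqcrc2 fell by 0.27 and 0.32, and the small subunits Uqcr11 and Uqcrq had log2 fold changes of -0.39 and -0.34. Uqcrh, another small subunit, lost its call when the trend with length and GC content was taken out. Cytochrome c itself (Cycs), the soluble carrier between complexes III and IV that also acts in apoptosis, had a larger estimated fall than any complex III gene, a difference that was not tested. It was at 69.6 and 70.3 CPM in shLuc, against 50.6 and 51.2 CPM in shMyb, a log2 fold change of -0.46 (95% interval -0.54 to -0.38).

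**Figure D2:**
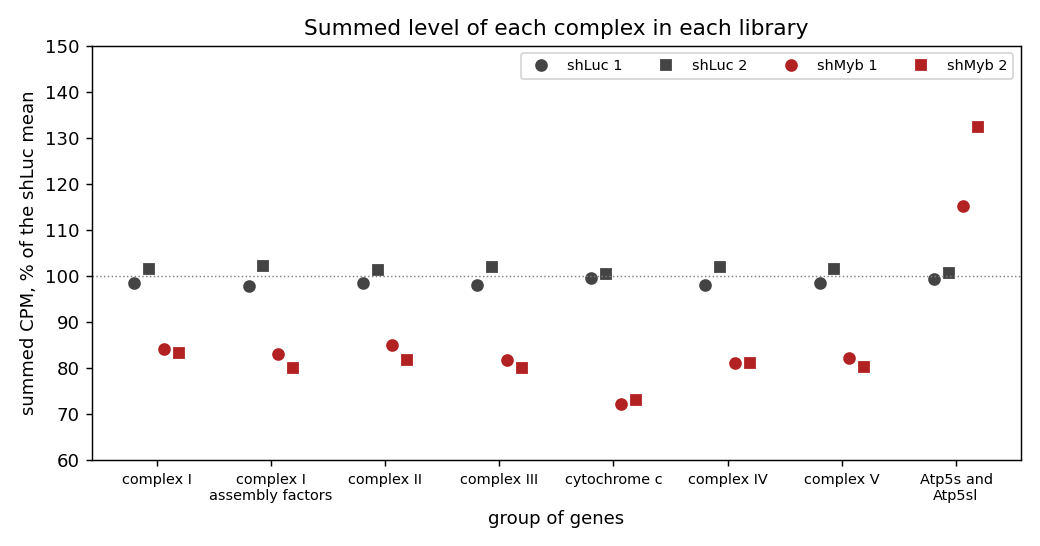
Summed CPM of each group of genes in each of the 4 libraries, as a percentage of the shLuc mean (y axis, which starts at 60), with grey points for shLuc and red for shMyb. In every complex both shMyb points lie below both shLuc points, and in the pair Atp5s and Atp5sl both lie above.

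Summed over each group, the level in shMyb differed from that in shLuc by -16.3% for complex I, -16.5% for complex II, -19.1% for complex III, -27.3% for cytochrome c, -18.8% for complex IV and -18.7% for complex V. The complex I sum was 2771 ± 58.6 CPM in shLuc and 2320 ± 16.6 CPM in shMyb (mean ± SD, n = 2 each). The complex V sum was 5109 ± 107 CPM against 4153 ± 68.8 CPM (n = 2 each). On the same scale the sum over all tested genes differed by -4.3%. Differences between complexes were not tested.

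Complex IV is cytochrome c oxidase, and several of its subunits have tissue isoforms. Its 11 subunits of the widely expressed kind all fell, with a median of -0.37 and a range from -0.57 to -0.19. Ndufa4 had the largest fall among them, from 190.1 and 197 CPM to 129 and 132 CPM, with a log2 fold change of -0.57, a 95% interval of -0.64 to -0.50 and an adjusted p of 1.5e-12 in edgeR's test. Cox5a, which is needed early in assembly, went from 248 and 262 CPM to 197 and 191 CPM (log2 fold change -0.39). Cox4i1, a regulatory subunit, went from 319.5 and 326 CPM to 267 and 272 CPM (-0.26). In all 11 both shMyb libraries were below both shLuc libraries, as they were in 41.2% of all tested genes. Cox7c differed between the shMyb duplicates, at 48.3 and 57.3 CPM. Cox6b1 (-0.20) lost its call when the trend with length and GC content was taken out (-0.059, adjusted p = 0.191 in edgeR).

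Most isoforms typical of muscle, testis, lung and other tissues were at or near the floor. Cox7b2 and Cox8c had no count in any library, Cox8b had 1 count in 1 library, and Cox4i2, Cox6a2 and Ndufa4l2 had at most 10 counts in any library. None of these 6 was tested. Their widely expressed counterparts Cox6a1, Cox7b and Cox8a had log2 fold changes of -0.20, -0.34 and -0.19. Cox6b2 was tested at 0.33 and 0.46 CPM against 0.36 and 0.27 CPM, its groups overlapped, and its interval was wide (-1.19 to 0.53, adjusted p = 0.527 in edgeR). Per kilobase of transcript, the widely expressed isoform made up at least 99.77% of its pair for Cox4, Cox6a and Cox6b in every library.

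The Cox7a family was less one-sided. Cox7a1, the heart and muscle isoform, was low but detected, at 4.71 and 5.39 CPM in shLuc, against 3.21 and 3.22 CPM in shMyb, with the lowest log2 fold change of all members (-0.65, adjusted p = 0.00025 in edgeR). Cox7a2, the widely expressed isoform, went from 132 and 144 CPM to 103 and 101 CPM (-0.44). Cox7a2l, a related protein that joins complexes III and IV into supercomplexes, was at 181 and 186 CPM in shLuc, against 183 and 174 CPM in shMyb. Its groups overlapped, and its log2 fold change was -0.04 (95% interval -0.11 to 0.03, adjusted p = 0.377 in edgeR). Per kilobase, the share of Cox7a2 in the family went from 52.7% and 53.8% in shLuc to 46.8% and 47.3% in shMyb, and that of Cox7a2l from 44.1% and 42.8% to 50.8% and 50.1%.

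Complex V fell in all 15 genes, with a median of -0.30 and a range from -0.48 to -0.20. Per kilobase of transcript, the highest levels among members of known length in shLuc were those of Atp5b, Atp5g3 and Atp5a1, at 837, 558 and 543 CPM per kilobase. Atp5b, the beta subunit with the catalytic sites, was at 1580.1 and 1627 CPM in shLuc against 1270.3 and 1241 CPM in shMyb (log2 fold change -0.35). Atp5a1, the alpha subunit, was at 1319 and 1367 CPM against 1195.5 and 1138 CPM (-0.20), and it lost its call when the trend with expression level was taken out (-0.07, adjusted p = 0.132 in edgeR). The exons of Atp5a1 overlap those of Haus1 on the opposite strand. The peripheral stalk, which holds the head still, had 4 of 4 genes lower with a median of -0.29, and the membrane part had 3 of 3 with a median of -0.27.

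Subunit c, which forms the turning ring, is encoded by 3 genes whose mature proteins are the same. Atp5g3 fell from 392 and 404 CPM to 291 and 280.2 CPM (-0.48), Atp5g1 from 99.4 and 102 CPM to 76.0 and 72.8 CPM (-0.43), and Atp5g2 from 81.7 and 82.5 CPM to 70.7 and 68.2 CPM (-0.24). The 3 together fell by 26.1%, from 581 ± 10.9 CPM to 429 ± 11.5 CPM (mean ± SD, n = 2 each). Per kilobase, Atp5g3 made up 62.5% and 62.9% of the family in shLuc and 60.1% and 60.2% in shMyb, while Atp5g2 went from 21.1% and 20.8% to 23.6% and 23.7% and Atp5g1 went from 16.4% and 16.3% to 16.2% and 16.1%. The groups did not overlap in any of the 3 shares, but these are parts of the same total and do not vary independently. For levels rather than shares, both shMyb libraries lay below both shLuc libraries in 41.2% of all tested genes. No such rate was computed for shares.

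Atp5sl was the only tested member called higher. It is known as a factor in the assembly of complex I rather than as a part of the ATP synthase, and it lies on chromosome 7 from 25619414 to 25625551 (GRCm38). Its level was 24.8 and 25.8 CPM in shLuc, against 30.6 and 35.4 CPM in shMyb. Both shMyb libraries were above both shLuc libraries although they differed from each other, and the log2 fold change was 0.38 (95% interval 0.26 to 0.51, adjusted p = 3.5e-05 in edgeR). Atp5s, a factor linked to ATP synthase, was at 8.01 and 7.48 CPM against 7.47 and 8.28 CPM, with overlapping groups and an interval from -0.17 to 0.22 (adjusted p = 0.843, edgeR).

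**Figure D3:**
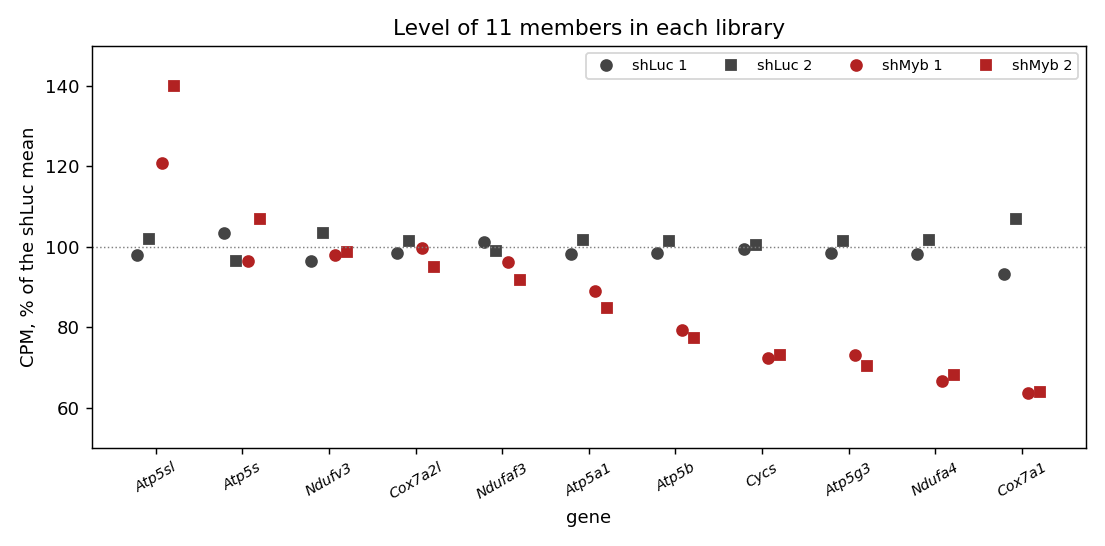
CPM of 11 members in each library as a percentage of the shLuc mean (y axis, which starts at 50), grey for shLuc and red for shMyb. Atp5sl lies above 100 in both shMyb libraries, and the groups overlap in Atp5s, Ndufv3 and Cox7a2l. Cycs, Atp5g3, Ndufa4 and Cox7a1 lie lowest in shMyb.

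The members are short transcripts, with 55 of the 86 tested members of known length at 1000 bases or less. Short transcripts were lower as a class: of the 1655 such tested genes 42.4% fell, with a median of -0.11. The short members had 53 of 55 lower and a median of -0.31, and the 31 longer members had 27 lower and a median of -0.28. When the trend of the fold change with length and GC content was taken out, 75 members were lower (31.6% of all tested genes) with a median of -0.22. When the trend with expression level was taken out, 77 were lower (31.1% of all). With library totals alone, 76 were lower (24.6% of all tested genes fell and 37.0% rose). Across the 86 members the log2 fold change and transcript length had a Pearson r of 0.24 and a Spearman rho of 0.23. With GC content the values were 0.23 and 0.32, and with mean log2 CPM they were 0.09 and 0.13. Across 12461 tested genes of known length they were 0.04 and 0.12 with length and 0.14 and 0.16 with GC content. With mean log2 CPM they were -0.30 and -0.27 across those genes. These are descriptions across genes that share the same 4 libraries.

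**Figure D4:**
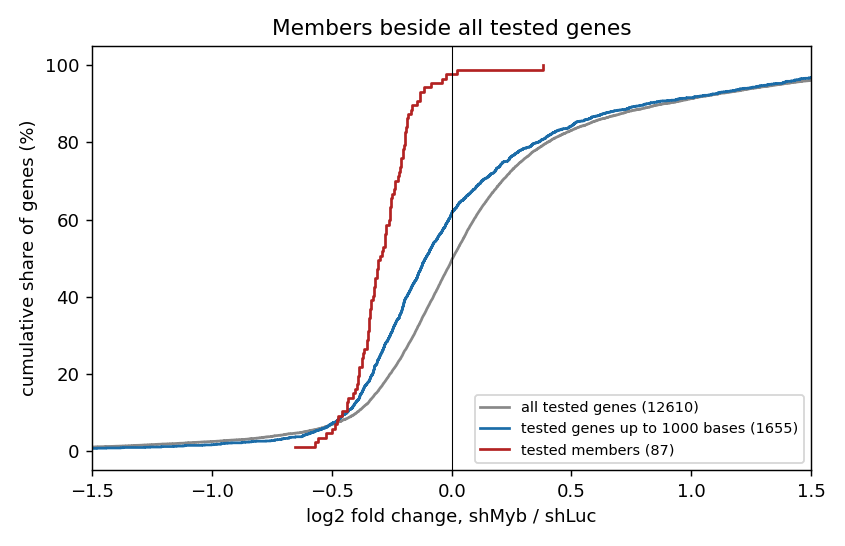
Cumulative share of genes (y axis, %) by log2 fold change (x axis, shMyb over shLuc) for all 12610 tested genes, for the 1655 tested genes of at most 1000 bases and for the 87 tested members. The members' curve rises steeply around its median of -0.30, while the other curves cross their medians at 0.0048 and -0.11.

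A RefSeq window of 250 bases before to 50 after the start site was at hand for 74 of the 87 tested members. The NRF1 motif was in 17 of these windows (23.0%), against 10.8% of the windows of 9986 tested genes and 4.78% of all 27025 windows. By complex, it was in 6 of 31 complex I subunits, 2 of 3 of complex II, 1 of 5 of complex III, 1 of 12 of complex IV, 5 of 14 of complex V and 2 of 6 assembly factors. The YY1 motif AAGATGGC was in 13.5% of the members' windows, against 4.83% of those of tested genes. The ETS motif CCGGAAG was in 21.6% against 18.8%, the Sp1 motif GGGCGG in 45.9% against 64.5%, CCAAT in 45.9% against 39.0%, the E-box CACGTG in 9.46% against 10.3% and the MYB motif TAACNG in 18.9% against 19.0%. Both strands were searched, matches of different motifs may overlap, and a match is only a run of letters. The 17 members with an NRF1 match had a median log2 fold change of -0.28 and the 57 without had -0.31.

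Genes around the chain were lower as well, to differing degrees. The counts below stand beside 31.7% lower and 30.6% higher among all tested genes. Among tested genes with at least 10 CPM in shLuc, 40.7% were lower. Import and carrier genes, which bring proteins and metabolites into the organelle, fell in 25 of 25, with a median of -0.34. Tomm5 and Tomm20 of the outer membrane pore fell by 0.62 and 0.53 on the log2 scale, and the matrix chaperonins Hspe1 and Hspd1 by 0.58 and 0.50. Of 19 genes of the citric acid cycle and pyruvate dehydrogenase 15 fell and 1 rose, with a median of -0.20. Suclg2, Idh3a and Fh1, all enzymes of the cycle, fell by 0.42, 0.32 and 0.29, and Pcx, which makes oxaloacetate from pyruvate, rose by 0.75. Ogdh and Dlst, subunits of oxoglutarate dehydrogenase, were not called (-0.01 and -0.05).

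Of 43 tested assembly factors outside the Ndufaf names 28 fell and 1 rose, with a median of -0.19. Mnf1, a complex III factor, fell by 0.44, Tmem70, which serves complexes I and V, by 0.37, Lrpprc, which stabilises mitochondrial mRNA, by 0.29 and Acad9 by 0.25, while Atpaf1, a complex V factor, rose by 0.35. Of 6 partners of the chain whose names fall outside the rule 5 fell, among them Usmg5 (-0.37), 2010107E04Rik (-0.33), Higd1a (-0.34) and Atpif1 (-0.27). Of 13 genes of ubiquinone synthesis 7 fell and 2 rose, beside 31.7% lower and 30.6% higher among all tested genes. Coq2, Coq7 and Pdss1 fell by 0.30, 0.23 and 0.33, and Adck3 rose by 0.44.

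Among 16 tested regulators of mitochondrial genes 8 fell and 3 rose, with a median of -0.09. The shares over all tested genes were 31.7% lower and 30.6% higher. Myc, a growth-promoting transcription factor, was at 325 and 324 CPM in shLuc, against 225 and 214 CPM in shMyb (-0.57). Tfdp1 and Pprc1, a coactivator, fell by 0.29 and 0.25, and Esrra, a nuclear receptor, rose by 0.26 but lost its call when the trend with length and GC content was taken out (0.093, adjusted p = 0.108 in edgeR). Nrf1, Yy1 and Gabpa fell by 0.10, 0.12 and 0.13. Tfam, which packages and transcribes mitochondrial DNA, was not called (-0.07).

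Markers of other states moved beside these genes. For comparison, 31.7% of all tested genes fell and 30.6% rose, and the summed CPM of all tested genes changed by -4.3%. Of 12 genes of dividing cells 10 fell and none rose, with a summed level of 8010 and 8050 CPM in shLuc, against 7361 and 7443 CPM in shMyb. Of 8 tested myeloid markers 5 rose and none fell, and their summed level was 6.68 and 5.30 CPM in shLuc, against 10.4 and 12.7 CPM in shMyb. Of 12 tested OP9 stroma markers 4 fell and 2 rose, summing to 78.9 and 62.6 CPM in shLuc, against 56.1 and 63.5 CPM in shMyb. Of 11 pre-B markers 3 fell and 5 rose. Of the T cell and erythroid markers 1 each could be tested, and neither was called. The part of these in the results on the chain was not tested.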

How the data were processed

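The series holds 4 RNA-seq libraries, 2 per group, grouped by their titles. The deposited files held raw counts of reads per gene symbol, 1 library per file. The tools listed, per the submitters' processing notes, are STAR, HTSeq, FastQC and DESeq2, with the build mm10 and no versions or roles. The strand setting of the counting is not given in the sources used here. The library kit was directional, per the labels' protocols, but reads of the 22 members whose exons overlap a gene on the opposite strand may not be separated, and reads of near-identical copies and pseudogenes may be split or lost.

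From the counts, 12610 of 16832 genes with a count passed filterByExpr (minimum count 10) and were fitted with edgeR 4.0.16 in R 4.3.3 (TMM scaling, glmQLFit with robust=TRUE, glmQLFTest, with no term other than group). Benjamini-Hochberg adjustment ran over all tested genes, and calls were made at an adjusted p below 0.05. Two-sided tests were used throughout. CPM used TMM-scaled library sizes. Intervals of 95% are for the log2 fold change. Lengths, GC content and coordinates (1-based) came from GENCODE M21 (GRCm38, also called mm10), which matched 93 of 94 members, with the transcript of median length for each gene. Promoters came from RefSeq on GRCm38.p6. Alternatives were RLE scaling, library totals, no filter, a filter of 1 CPM in 2 libraries, DESeq2 1.42.0, limma-voom 3.58.1, a replicate block, each library left out, an adjusted p below 0.01, glmTreat, and trends with expression or with length and GC (loess, span 0.5) taken out. The test was checked on simulated counts in which few genes changed, as many up as down. That check does not cover data in which most genes are called, as here.

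The members and lists were chosen with earlier results of these data known. Members named with values were those with core catalytic roles, the 3 with the largest fall in each complex, all not called or higher, and isoform families, apart from a result that is not reported here. From each list up to 4 genes with the smallest p were named. Others (Ndufs3, Uqcrc2, Uqcrh, Cox7c, Atpaf1, Ogdh, Dlst, Nrf1, Yy1, Gabpa, Tfam) were chosen after their values were seen.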

Additional observations from a re-analysis of the deposited data

How the results depend on the processing

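The count of members that fell stayed between 75 and 81 of those tested under every alternative other than the minimum fold of 1.2, and Atp5sl was the member called higher in each. DESeq2 gave 78, voom 81 and an adjusted p below 0.01 gave 78. Against the minimum fold of 1.2, 31 members passed: 11 subunits of complex I, 1 of complex II, 3 of complex III, 7 of complex IV, 6 of complex V, 2 assembly factors and Cycs. The members' median of -0.30 moved to -0.26 with the expression trend taken out, -0.28 with a filter of 1 CPM, -0.22 with the length and GC trend taken out and -0.24 with library totals. Leaving out 1 library gave medians from -0.33 to -0.28 and counts from 78 to 81. Without shLuc replicate 2, Ndufa13, Ndufaf7 and Ndufs3 lost their calls, and without shMyb replicate 2, Ndufaf7 did.

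Changes of sign occurred in 3 members that were not called. Atp5s went to -0.076 with the expression trend taken out, and leaving out 1 library gave values from -0.053 to 0.093. Cox7a2l went to 0.014 with the expression trend taken out, 0.053 with the length and GC trend taken out and 0.024 with library totals. Ndufv3 went to 0.0085, 0.085 and 0.037 under the same alternatives, and leaving out 1 library gave values from -0.096 to 0.017. Myb was called higher with library totals (0.11) and with the expression trend taken out (0.14). The cause was not tested.

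With the replicate number as a block, 81 members fell, 1 rose and the median was -0.30, and no call on a member was lost or gained. Libraries with the same number deviated in opposite directions (correlation -0.19 across genes), and the crossed pairing, added after seeing the data, also gave 81, with 4335 genes lower and 4258 higher in all against 3994 and 3855 with no block. Low counts left 7 members untested.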
